A study of Homo sapiens with 6 samples.

Results

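IRF4 and 9 other transcription factors that set B cell or plasma cell identity were followed after knockdown of the histone deacetylase HDAC1 in RPMI 8226, a line grown from a human multiple myeloma. The genes were chosen by name. IRF4, PRDM1 and POU2AF1 act in plasma cells. POU2F2, MEF2C, SPIB, PAX5, BCL6, BACH2 and EBF1 act in B cells, and several of them are silenced when those become plasma cells. The 10 genes are among 34500 genes with a transcript in the files, and 133 of their transcripts annotated in GENCODE 29 were listed. The control libraries came from cells given a hairpin against luciferase (shLuc) and the others from cells given a hairpin against HDAC1 (shHDAC1), both delivered by lentivirus, with 3 libraries in each group. All cells had been selected with puromycin for 48 h, in medium with 10% serum, and the labels tell no separate hairpins against HDAC1 apart, so an effect of HDAC1 loss and an effect of that hairpin on other RNAs cannot be told apart. The replicates are described only as transductions done in triplicate, and the p-values reflect no other source of spread.

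Plasma cells arise when a B cell gives up its own program. PAX5 and EBF1 hold B cell identity, BCL6 and BACH2 hold back plasma cell differentiation, and PRDM1 (BLIMP-1) represses these factors once IRF4 has risen. IRF4 binds DNA weakly alone and pairs with the ETS factors PU.1 and SPIB or with BATF and JUN proteins, and myeloma cells depend on it. POU2AF1 (OBF-1) is the coactivator of the octamer-binding factor OCT2, which POU2F2 encodes, and MEF2C is a transcription factor of B cell activation that is also found in myeloma.

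Values are TPM, the number of transcripts of a kind in 1000000 transcripts of a library, corrected for length, so that levels may be compared between genes. The files keep no read depth, and the precision of low values is therefore unknown. HDAC1 itself lay between 85.0 and 90.0 TPM in the shLuc libraries and between 27.0 and 31.8 TPM in the shHDAC1 libraries. A gene was tested if it reached 1 TPM in at least 3 libraries, and it was called at an adjusted p below 0.05 (limma on log2(TPM + 1), Benjamini-Hochberg over all 11857 genes tested). Of all genes tested, 16.9% were called higher and 10.3% lower with shHDAC1. This balance moved with the scaling, and higher genes made up 62.2% of the calls as deposited, 42.2% with the library medians aligned and 47.0% after quantile normalization. The label of the line was checked against marker genes. The 10 plasma cell markers summed to between 8280 and 9087 TPM with shLuc and between 6163 and 7451 TPM with shHDAC1, with JCHAIN, the joining chain of secreted antibodies, the most abundant. MS4A1 and CD79B, which mark B cells, stayed below 1 TPM, as did CD3E and CD14 of T cells and monocytes, while CD27 and SLAMF7, often found on plasma cells, were also below 1 TPM. Not all markers of other cells were low, since 4 of the 10 mature B cell markers reached 1 TPM in some library (FCER2 up to 10.5 TPM, CR2 up to 4.82 TPM, CD40 up to 3.25 TPM and CD79A up to 1.70 TPM). So did CD8A (up to 3.50 TPM), ITGAM (up to 8.05 TPM), S100A9 (up to 2.38 TPM) and the fibroblast marker COL1A1 (up to 2.2 TPM).

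All 3 plasma cell factors fell with shHDAC1. IRF4 fell most, to 45.6% of its control level, followed by PRDM1 to 66.7% and POU2AF1 to 80.8%. The 7 B cell factors did not move together. SPIB rose and BACH2 fell, both from low levels, MEF2C was not called, and PAX5, BCL6, POU2F2 and EBF1 were too low to be tested. Thus 4 of the 10 genes were called lower and 1 higher, beside 10.3% and 16.9% of all genes tested. It was only in the controls that BACH2 reached the filter, so it could hardly have come out higher, and its part in this count is set by the filter.

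**Figure D1:**
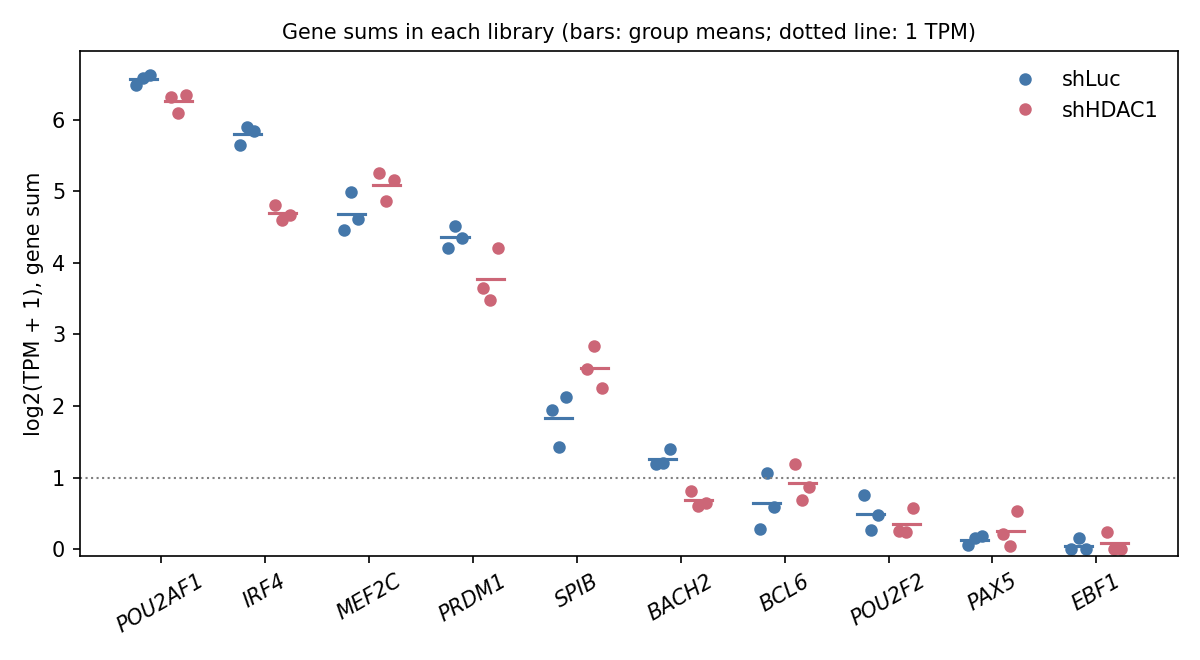
Gene sums of the 10 factors as log2(TPM + 1) in each of the 6 libraries, ordered by the shLuc mean; points are libraries, short bars group means, and the dotted line is 1 TPM. IRF4 stands apart between the groups (49.3 to 58.4 TPM against 23.3 to 27.0 TPM), whereas PAX5 and EBF1 lie near the bottom in both.

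The order of the levels changed with the fall of IRF4. In the shLuc libraries POU2AF1 had the highest level (93.7 TPM on average, rank 1762 of 34500 genes), followed by IRF4 (54.7 TPM, rank 2852), MEF2C (25.1 TPM, rank 5016) and PRDM1 (19.6 TPM, rank 5747). The ranges of MEF2C and PRDM1 overlapped, while those of the other neighbours among these 4 genes did not. In the shHDAC1 libraries MEF2C (33.4 TPM) came before IRF4 (24.9 TPM), with ranges that did not overlap, and IRF4 stood at rank 5204. SPIB came next in both groups, at 2.63 and 4.89 TPM. The remaining 5 genes had means of at most 1.41 TPM in either group.

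IRF4 (ENSG00000137265.14, chromosome 6, 391739 to 411447, plus strand, GRCh38) encodes the interferon regulatory factor of lymphocytes. The controls held 49.3, 58.4 and 56.3 TPM of it, and the knockdown libraries 27.0, 23.3 and 24.5 TPM. The lowest control library was thus well above the highest knockdown library. The fall was -1.10 ± 0.09 as a log2 fold change (SE), with an adjusted p of 6.1e-05 by limma, and it lay between -1.20 and -0.99 under all 15 alternatives, each of which called it. Groups without overlap were found for 43.3% of all genes tested, and for 16% with shHDAC1 on the lower side.

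Most of the fall lay in the full-length messenger RNA, which makes up most of the gene sum. IRF4-201, the protein-coding transcript with 451 coding codons, stood at 47.4, 54.6 and 52.9 TPM with shLuc and at 25.5, 22.1 and 22.8 TPM with shHDAC1 (log2 fold change -1.10 ± 0.09, adjusted p = 0.0059, limma over all 39716 transcripts tested, of which 1.51% were called lower and 3.33% in either direction). It made up 94.5% of the gene sum with shLuc and 94.1% with shHDAC1, a difference of -0.35 ± 1.83 percentage points (SE). IRF4-202, a noncoding transcript from the same start, had a log2 fold change of -0.60 ± 0.28 and was not called (adjusted p = 0.34). Its mean with shHDAC1 was 49.1% of that with shLuc, beside 45.5% for IRF4-201. The other 3 transcripts stayed below 1 TPM, among them IRF4-204, annotated as a target of nonsense-mediated decay.

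The promoter of IRF4 and a short site in its 3' UTR are shown because the results turn on this gene. The promoter window covers the 250 bases before the RefSeq start (GRCh38.p14, chr6:391502-391751, plus strand), and capitals mark matches to GGGNGGG, the shared core bound by KLF and SP factors, on either strand:
IRF4 promoter: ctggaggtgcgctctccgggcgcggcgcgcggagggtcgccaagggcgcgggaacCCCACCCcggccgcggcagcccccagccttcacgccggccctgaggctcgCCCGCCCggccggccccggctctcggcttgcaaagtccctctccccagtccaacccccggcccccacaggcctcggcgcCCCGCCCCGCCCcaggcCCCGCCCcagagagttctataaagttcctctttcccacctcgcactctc
The window holds 5 such matches, of which 2 overlap, and 6.13% of all 35116 promoter windows in the table hold 5 or more, while 51.6% hold at least 1. It has a GC content of 76.0%, against a median of 58% over all windows. KLF2, a KLF factor reported upstream of IRF4 in myeloma, was lower in the same libraries (log2 fold change -3.84 ± 0.25, adjusted p = 9.7e-06). Searched on both strands with no match in this window were the octamer ATGCAAAT, the interferon response element (GAAA and GAAA with 2 bases between), the ETS and IRF composite (GGAA and GAAA with 2 bases between), the PRDM1 core AGNGAAAG, the kB site GGGNNTTCC and the AP-1 site TGANTCA, which 1.63%, 3.02%, 2.41%, 6.57%, 5.78% and 6.57% of all windows hold. In the 3' UTR, capitals mark the 7 bases GACAAAC (GENCODE 29 transcript IRF4-201, chr6:409296-409325, plus strand):
IRF4 3' UTR site: actacagaaaaGACAAACagtagagaacag
The site begins at base 1709 after the stop codon of IRF4-201. Of the tested genes with a 3' UTR to search, 8.56% held GACAAAC there in at least 1 coding transcript. IRF4 and SPIB were the 2 of the 10 factors that held it, SPIB only in SPIB-205, listed at no more than 0.29 TPM. Whether these bases bear on the fall of IRF4 was not tested.

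PRDM1 (ENSG00000057657.16, chromosome 6, 106086320 to 106109939, plus strand) encodes the repressor that ends the B cell program. Its summed level was 17.4, 21.9 and 19.4 TPM with shLuc and 11.5, 10.2 and 17.4 TPM with shHDAC1. The groups overlapped through shHDAC1 replicate 3, which lay at the level of the lowest control library. The log2 fold change was -0.58 ± 0.18 (adjusted p = 0.040), and the call did not survive the removal of any control library (adjusted p = 0.057, 0.13 and 0.078 without replicates 1, 2 and 3) or that of shHDAC1 replicate 1 (0.12) or 2 (0.098).

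A single fragmentary transcript stood out in shHDAC1 replicate 3. PRDM1-205, whose annotated end is incomplete, stood at 1.27, 2.07 and 0 TPM with shLuc and at 0.003, 0.28 and 5.03 TPM with shHDAC1, so that it made up 28.9% of the PRDM1 sum in shHDAC1 replicate 3. PRDM1-203, which carries the whole reading frame of 825 codons, stood at 9.31, 12.6 and 10.4 TPM with shLuc and at 6.81, 6.70 and 6.95 TPM with shHDAC1. The groups of PRDM1-203 did not overlap, as for 25.6% of all transcripts tested, but the transcript missed the threshold among all transcripts (log2 fold change -0.58 ± 0.14, adjusted p = 0.098). When transcripts of incomplete end were left out of all gene sums, an alternative chosen after seeing the data, the PRDM1 difference was -0.61 on the log2 scale, with an adjusted p of 0.0061.

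PRDM1 has a pair of annotated RefSeq starts, shown because they separate the full-length form from a shorter form, PRDM1 beta, that lacks part of the PR domain. Both windows cover 250 bases of GRCh38.p14 on the plus strand, the upstream at chr6:106086086-106086335 and the internal at chr6:106098691-106098940, and capitals mark matches to GGGNGGG, GGGNNTTCC or TGANTCA on either strand:
PRDM1 upstream start: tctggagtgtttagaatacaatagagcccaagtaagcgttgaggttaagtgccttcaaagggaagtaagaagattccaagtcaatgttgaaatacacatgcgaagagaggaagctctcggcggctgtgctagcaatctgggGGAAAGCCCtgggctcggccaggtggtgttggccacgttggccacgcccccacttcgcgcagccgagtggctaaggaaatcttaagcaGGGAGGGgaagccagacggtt
PRDM1 internal start: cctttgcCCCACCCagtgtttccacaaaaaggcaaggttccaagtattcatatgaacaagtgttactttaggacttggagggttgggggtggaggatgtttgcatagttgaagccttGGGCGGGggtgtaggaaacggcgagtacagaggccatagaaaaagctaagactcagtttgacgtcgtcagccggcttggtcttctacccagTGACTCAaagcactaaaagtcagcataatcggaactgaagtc
The upstream window holds 1 GGGNGGG match and 1 kB match and the internal window 2 GGGNGGG matches and 1 AP-1 match. Transcripts that begin within 200 bases of the upstream start, PRDM1-202 and PRDM1-203, summed to 12.6, 13.6 and 13.4 TPM with shLuc and to 9.17, 7.68 and 8.77 TPM with shHDAC1, without overlap. Those within 200 bases of the internal start, PRDM1-201 and PRDM1-206, summed to at most 1.47 TPM in any library. PRDM1-205 begins between the starts, at 106098606, nearer the internal start (106098941). It is in neither sum, and it stood at 5.03 TPM in shHDAC1 replicate 3. PRDM1-201, the beta form with 691 codons, was listed at 0 in 5 libraries and at 0.37 TPM in shHDAC1 replicate 3. PRDM1-204, a fragment of incomplete end, stood at 3.02 to 4.73 TPM with shLuc and at 1.96 to 2.27 TPM with shHDAC1 and was not called (-0.65 ± 0.20, adjusted p = 0.16).

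POU2AF1 (ENSG00000110777.11, chromosome 11, 111352252 to 111455630, minus strand) stood at 88.3, 95.2 and 97.6 TPM with shLuc and at 78.8, 67.6 and 80.5 TPM with shHDAC1. The groups did not overlap, and the log2 fold change was -0.31 ± 0.08 (adjusted p = 0.025). It missed the threshold once shLuc replicate 2 (adjusted p = 0.070), shLuc replicate 3 (0.075) or shHDAC1 replicate 2 (0.056) was removed.

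The coding transcript fell further than the sum. POU2AF1-201, with 256 coding codons, stood at 81.8, 84.6 and 88.3 TPM with shLuc and at 62.8, 57.1 and 63.4 TPM with shHDAC1 (log2 fold change -0.47 ± 0.07, adjusted p = 0.029 among all transcripts). Its call was lost without any 1 of the 6 libraries, with adjusted p between 0.081 and 0.11. POU2AF1-205, a noncoding fragment of incomplete end that lies in the 3' part of the gene, went the other way, at 0, 0 and 2.48 TPM with shLuc and at 9.96, 4.24 and 9.34 TPM with shHDAC1. It was not called (log2 fold change 2.47 ± 0.59, adjusted p = 0.093). As shares of the sum, POU2AF1-201 made up 92.7%, 88.9% and 90.5% with shLuc and 79.7%, 84.4% and 78.7% with shHDAC1. That difference of -9.73 ± 2.38 percentage points (SE) did not pass the test of shares (adjusted p = 0.40), nor did that of POU2AF1-205 (9.32 ± 1.9, adjusted p = 0.32). With only protein-coding transcripts summed, the POU2AF1 log2 fold change was -0.46 (adjusted p = 0.0017), larger than for the full sum. The noncoding POU2AF1-208 (-0.32 ± 0.17) and POU2AF1-203 (-0.26 ± 0.42) were not called (adjusted p = 0.38 and 0.80).

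Shares of the other transcripts gave no call either. Of 18 isoform shares tested in 4 of the factors, 0 were called, as were 0 of 36863 over all genes (limma on the share in percent). At an unadjusted p below 0.05 stood 2 of the 18, both of POU2AF1, and 3122 of the 36863. At the level of single transcripts 19 of the 133 were tested, 2 were called lower (IRF4-201 and POU2AF1-201) and 0 higher, with 5 at an unadjusted p below 0.05. Over all transcripts tested 1.51% were called lower and 1.83% higher.

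**Figure D2:**
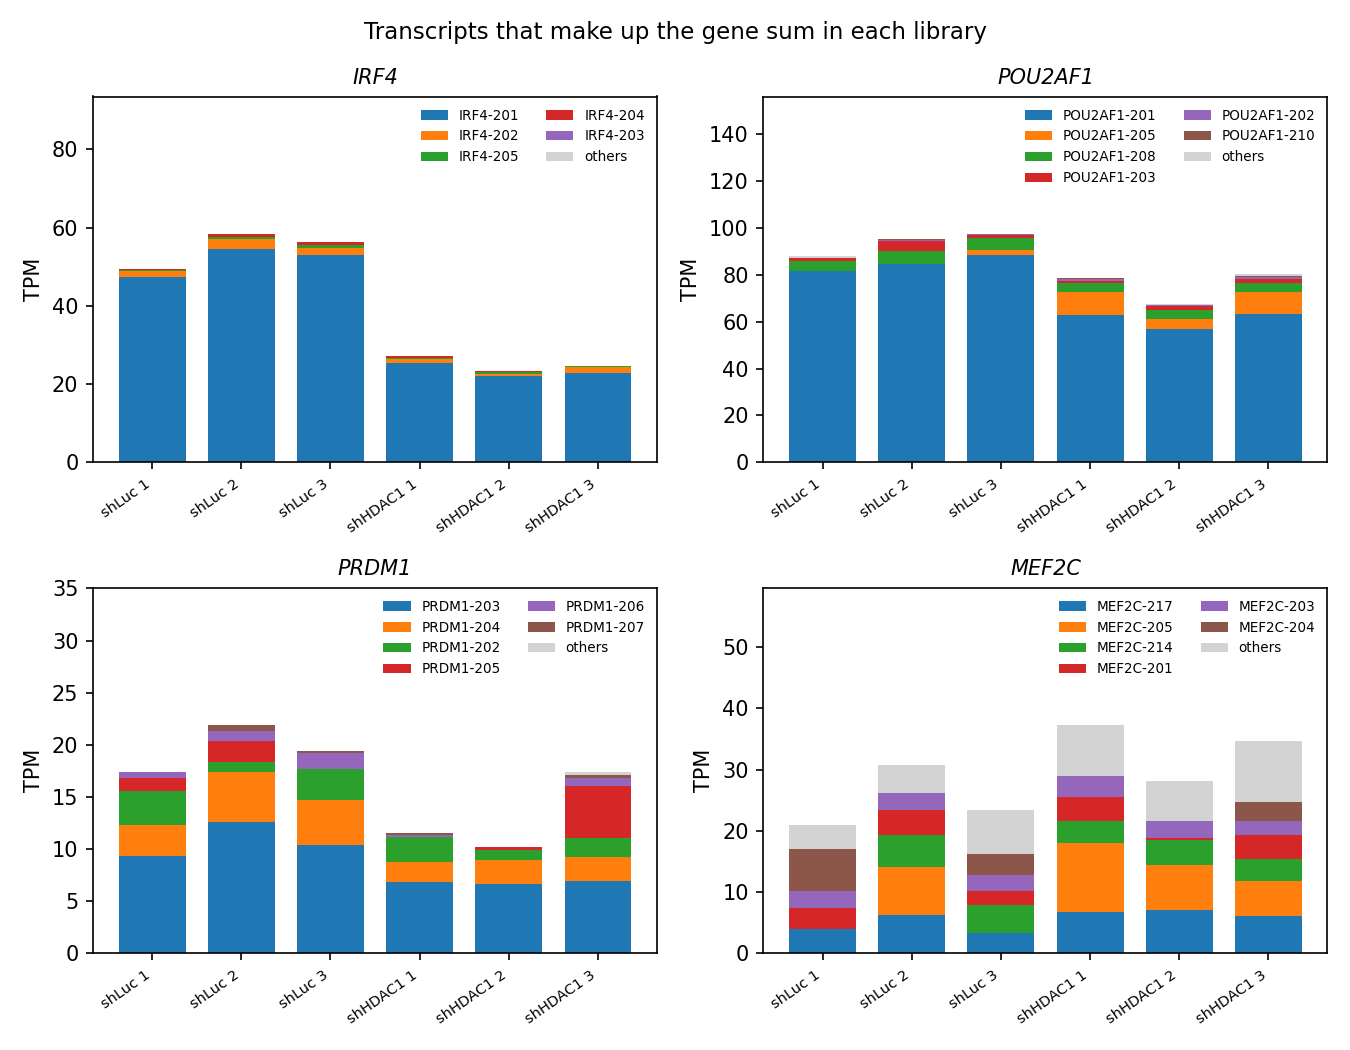
Stacked TPM of the 6 most abundant transcripts of IRF4, POU2AF1, PRDM1 and MEF2C in each library, with the others in grey. IRF4-201 and POU2AF1-201 make up most of their sums, PRDM1-205 takes 5.03 TPM in shHDAC1 replicate 3 only, and the make-up of the MEF2C sum varies between replicates of a group.

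MEF2C (ENSG00000081189.15, chromosome 5, 88717117 to 88904257, minus strand) was the B cell factor with the highest level. It stood at 21.0, 30.7 and 23.4 TPM with shLuc and at 37.3, 28.2 and 34.6 TPM with shHDAC1, so that the groups overlapped through shLuc replicate 2 and shHDAC1 replicate 2. The log2 fold change of 0.41 ± 0.15 missed the threshold (adjusted p = 0.073). It passed without shLuc replicate 2 (0.56, adjusted p = 0.024), without shHDAC1 replicate 2 (0.52, adjusted p = 0.033) and without transcripts of incomplete end (0.39, adjusted p = 0.030).

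The MEF2C sum was spread over many transcripts. Of 34 listed, 18 had a value above 0 in some library and 8 were tested, with none called and 0 at an unadjusted p below 0.05. MEF2C-205, a fragment of incomplete end, was listed at 0, 7.73 and 0 TPM with shLuc and at 11.3, 7.36 and 5.79 TPM with shHDAC1. MEF2C-204 stood at 6.91, 0.04 and 3.41 TPM and at 0, 0 and 3.17 TPM in the same order. Values of single MEF2C transcripts therefore jumped between replicates of a group. MEF2C-203, with 473 coding codons, was steadier, at 2.77, 2.78 and 2.61 TPM with shLuc and at 3.45, 2.78 and 2.31 TPM with shHDAC1. MEF2C-217, with 433 codons, stood at 4.01, 6.34 and 3.34 TPM and at 6.71, 7.03 and 6.05 TPM, with overlapping groups. MEF2C-201 and MEF2C-202 both begin within 200 bases of the RefSeq start at 88904105, and they traded places in shHDAC1 replicate 2. There MEF2C-201 was at 0.30 TPM and MEF2C-202 at 4.32 TPM, against 3.81 TPM and at most 0.26 TPM in the other shHDAC1 libraries. By start site, the transcripts at the RefSeq start with the most distal position on chromosome 5 (88904105) summed to 3.70 ± 0.33 TPM with shLuc and to 4.46 ± 0.57 TPM with shHDAC1 (SD, n = 3).

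SPIB (ENSG00000269404.6, chromosome 19, 50418938 to 50431313, plus strand) encodes an ETS factor that can pair with IRF4 and that PRDM1 represses in plasma cells. It stood at 2.85, 1.68 and 3.36 TPM with shLuc and at 4.70, 6.18 and 3.78 TPM with shHDAC1. The groups did not overlap, and the log2 fold change was 0.71 ± 0.22 (adjusted p = 0.039). It was no longer called after median centring (adjusted p = 0.074) or quantile normalization (0.11), nor once shLuc replicate 1 (0.070), shLuc replicate 2 (0.12), shHDAC1 replicate 1 (0.085) or shHDAC1 replicate 2 (0.10) was removed. SPIB-203, an intron-retaining transcript, was the only one tested and stood at 1.39, 0.31 and 1.46 TPM with shLuc and at 1.38, 2.77 and 1.13 TPM with shHDAC1. SPIB-201, a coding transcript of 177 codons, stood at 0.11, 0.36 and 0.88 TPM with shLuc and at 1.53, 0.998 and 1.61 TPM with shHDAC1. The coding transcript with the most codons (262) was SPIB-205. It stood at 0.20, 0.13 and 0.29 TPM with shLuc and at 0, 0.16 and 0.21 TPM with shHDAC1, with overlapping groups. With only protein-coding transcripts summed, the SPIB difference was 0.57 on the log2 scale (adjusted p = 0.017).

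BACH2 (ENSG00000112182.14, chromosome 6, 89926529 to 90296908, minus strand), which represses PRDM1 in B cells, stood at 1.29, 1.30 and 1.64 TPM with shLuc and at 0.76, 0.52 and 0.57 TPM with shHDAC1. The mean with shHDAC1 was 43.7% of that with shLuc, and the groups did not overlap. BACH2 reached the filter in the controls only, so the lack of overlap and the direction are set by the filter. Neither they nor the call below are separate support for a fall. On the scale of log2(TPM + 1) the fold change was -0.58 ± 0.16 (adjusted p = 0.028), a value that understates low genes and became -1.08 with a pseudocount of 0.1 and -0.19 with one of 5. BACH2-210, a coding transcript, stood at 0.41, 0.51 and 0.66 TPM with shLuc and at 0.09, 0.09 and 0.13 TPM with shHDAC1. Removal of shHDAC1 replicate 2 (adjusted p = 0.065) or 3 (0.074) ended the call, and with any shLuc library removed BACH2 fell below the filter.

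The other B cell factors lay at the bottom of the range in both groups. BCL6, a repressor that belongs to the germinal centre program, stood at 0.22, 1.09 and 0.50 TPM with shLuc and at 1.28, 0.61 and 0.83 TPM with shHDAC1. Its groups overlapped. POU2F2 lay between 0.20 and 0.69 TPM with shLuc and between 0.18 and 0.48 TPM with shHDAC1, far below its coactivator POU2AF1. PAX5 lay between 0.04 and 0.14 TPM and between 0.03 and 0.44 TPM, and EBF1 was listed at 0 in 4 of the 6 libraries and at 0.18 TPM at most. None of these 4 genes was tested, so no change in them was detectable at this filter.

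**Figure D3:**
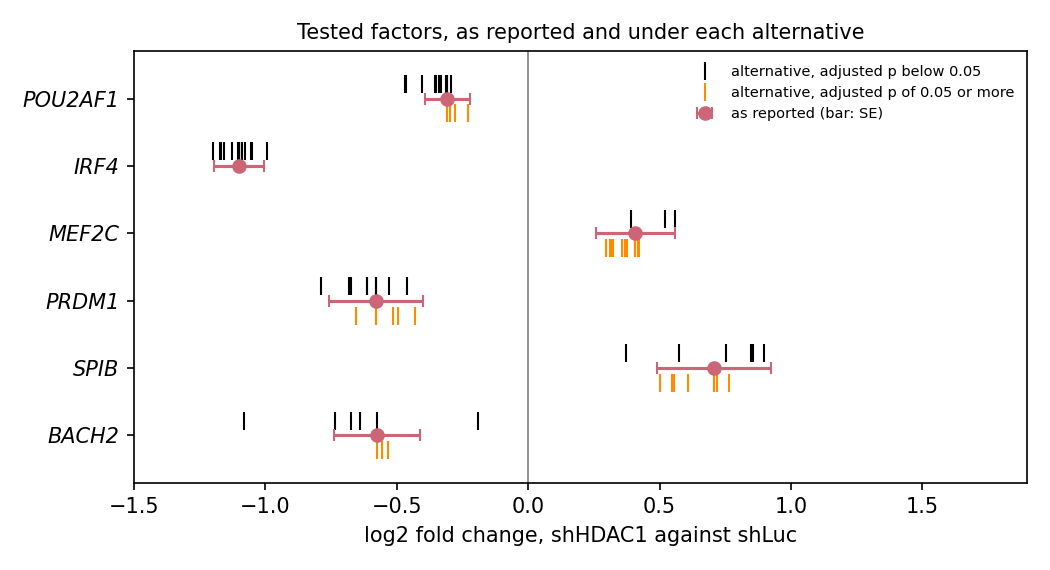
Log2 fold change of the 6 tested factors; red points with SE are the values as reported, black ticks are alternatives with an adjusted p below 0.05 and orange ticks those at 0.05 or more. Every tick of a gene lies on the same side of 0, and IRF4 alone has no orange tick.

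Relatives of the 10 factors were followed next, from lists chosen with earlier results of these data known. Over all genes tested, 16.9% were called higher and 10.3% lower. These shares belong beside each count of list genes or markers that follows. Lists share genes, so their counts are not separate evidence. SPI1 counts among the higher relatives, IRF4 partners and further B cell factors. ELL2 counts among the lower IRF4 targets and further plasma cell factors. Of 27 relatives, 18 were tested and 4 were higher. The median of their log2 fold changes was 0.23, against 0.07 over all genes tested. None was called lower by limma, and none had a log2 fold change below 0 at an unadjusted p below 0.05. IRF9 (1.51 ± 0.17, adjusted p = 2.8e-04) and IRF7 (1.46 ± 0.26, adjusted p = 0.0037), which transmit and amplify interferon signals, were higher, from 21.4 to 62.6 TPM and from 2.65 to 9.25 TPM. SPI1, which encodes PU.1, the ETS partner of IRF4, rose from 29 ± 2.27 to 43.0 ± 6.83 TPM (SD, n = 3; 0.55 ± 0.12, adjusted p = 0.0085). IRF8, the closest relative of IRF4 in B cells, stood at 21.4 ± 2.84 and 22 ± 2.78 TPM (SD, n = 3; 0.03 ± 0.12, adjusted p = 0.87).

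Most partners and upstream regulators of IRF4 were higher. Of 19 tested, 12 were higher and 1 lower, with a median of 0.46. The count of higher genes was 6 without shHDAC1 replicate 1 or 3 and 7 without shLuc replicate 1. JUNB, an AP-1 subunit that binds with BATF and IRF4, rose from 27.6 ± 0.55 to 47.9 ± 1.51 TPM (0.77 ± 0.07, adjusted p = 1.2e-04), and NFKB1, an NF-kB subunit, from 28.3 ± 0.93 to 39.9 ± 1.85 TPM (0.48 ± 0.08, adjusted p = 0.0022). BATF2 reached 2.54 ± 0.91 TPM from 0.21 ± 0.04 TPM and reached the filter in the shHDAC1 libraries only, so that its direction is set by the filter. The gene on the lower side was KLF2, from 39.6 ± 1.93 to 1.99 ± 1.08 TPM. IKZF1 (0.26 ± 0.09, adjusted p = 0.067) and IKZF3 (0.05 ± 0.12, adjusted p = 0.81), the Ikaros factors that lenalidomide degrades through cereblon, were not called.

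Genes reported as IRF4 targets in myeloma were mostly lower. Of 11 tested, 9 were lower and 1 higher, with a median of -0.43, and the count of lower genes was 7 or 8 without any 1 library. PRDM1 and KLF2 are in this list and were given before. SQLE, an enzyme of cholesterol synthesis, fell from 126 ± 11.1 to 56.7 ± 5.76 TPM (SD, n = 3; -1.13 ± 0.09, adjusted p = 4.8e-05). ELL2, an elongation factor that favours the secreted form of antibody messenger RNA, fell from 19.2 ± 1.49 to 9.04 ± 1.79 TPM (-1.02 ± 0.14, adjusted p = 9.0e-04). MYC, a driver of growth in myeloma, fell from 712 ± 24.8 to 529 ± 22.9 TPM (-0.43 ± 0.06, adjusted p = 6.5e-04). CDK6, a cell cycle kinase, rose by 0.52 ± 0.11 on the log2 scale, and HK2 was not called (0.03 ± 0.09, adjusted p = 0.81).

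Other factors of both stages were counted too. Of 12 further plasma cell factors tested, 5 were lower and 1 higher, with a median of -0.02. BHLHA15 (MIST1), a factor of secretory cells, fell from 71.0 ± 3.77 to 50.7 ± 1.46 TPM (-0.48 ± 0.07, adjusted p = 0.0014) and MAF, a myeloma oncogene, from 192 ± 18.3 to 141 ± 12.9 TPM (-0.45 ± 0.09, adjusted p = 0.0064). CREB3L2, a factor of the secretory pathway, rose from 12.5 ± 1.08 to 22.3 ± 2.06 TPM (0.79 ± 0.11, adjusted p = 9.3e-04). Of 16 further B cell factors tested, 5 were higher and none lower by limma, with a median of 0.14 and none below 0 at an unadjusted p below 0.05. With only protein-coding transcripts summed, 1 of these B cell factors was lower. ETS1, which restrains plasma cell differentiation, rose from 6.58 ± 0.37 to 14.8 ± 1.07 TPM (1.06 ± 0.11, adjusted p = 1.9e-04), and ID3, an inhibitor of E proteins, from 9.92 ± 0.76 to 18.1 ± 0.31 TPM (0.81 ± 0.10, adjusted p = 5.2e-04).

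Genes downstream of the B cell factors gave mixed counts. Of 8 PAX5-activated genes tested, 4 were lower and 1 higher, with a median of -0.39, beside a PAX5 level near 0 in all libraries. BACH2 is 1 of the 4 lower genes, and as it reached the filter in the controls only, its direction in this count is set by the filter. CD72, a B cell coreceptor, fell from 14.4 ± 0.57 to 4.86 ± 0.39 TPM (SD, n = 3; -1.40 ± 0.11, adjusted p = 3.7e-05) and CR2, the complement receptor, from 4.15 ± 0.77 to 2.13 ± 0.53 TPM (-0.72 ± 0.18, adjusted p = 0.018). FCRLA was higher (0.46 ± 0.15, adjusted p = 0.044), a call that was lost after either scaling and without shLuc replicate 2 or 3 or shHDAC1 replicate 1 or 2. The count of lower genes was 1 without shLuc replicate 3 and 2 without shLuc replicate 1, shLuc replicate 2 or shHDAC1 replicate 3. Of 8 PAX5-repressed genes tested, 4 were lower and 1 higher, with a median of -0.18. SDC1, the plasma cell syndecan CD138, fell from 143 ± 11.3 to 114 ± 4.58 TPM (-0.33 ± 0.07, adjusted p = 0.011), and CCR2, a chemokine receptor, rose from 4.11 ± 0.26 to 6.95 ± 0.80 TPM. The count of lower genes was 1 once shLuc replicate 1 or 2 was removed, 2 after removal of shHDAC1 replicate 1 or 3, and 2 after quantile normalization.

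Of 10 genes that PRDM1 represses in B cells, 5 were tested, with 2 higher (ID3 and SPIB), 1 lower (MYC) and a median of 0.38. The others, PAX5 and BCL6 among them, were too low to be tested. The count of higher genes was 1 under each scaling and without each library that ended the SPIB call. Of 11 BCL6-repressed genes tested, 4 were higher and 4 lower, with a median of -0.08. CXCL10, a chemokine induced by interferon, CCL3 and CD44 were among those higher, and IRF4, PRDM1, CDKN1A and CCND2 were lower, with CCND2, cyclin D2, falling from 121 ± 8.96 to 87.6 ± 8.81 TPM (SD, n = 3; -0.46 ± 0.09, adjusted p = 0.0050). Of 4 OCT2 and OBF1 targets tested, CD36 (0.59 ± 0.18, adjusted p = 0.036) and SPIB were higher, and both calls were lost after either scaling and without shLuc replicate 1 or shHDAC1 replicate 1 or 2. TNFRSF17, the receptor BCMA, was lower (-2.31 ± 0.06, adjusted p = 3.6e-08).

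Markers of cell types moved beside these factors. Of 8 plasma cell markers tested, 7 were lower, among them MZB1 (-0.53 ± 0.06) and DERL3 (-0.76 ± 0.09), both of the endoplasmic reticulum. The 10 mature B cell markers summed to between 14.2 and 18.8 TPM with shLuc and to between 8.30 and 8.96 TPM with shHDAC1, with FCER2 (-1.61 ± 0.15) and CR2 lower. The 10 myeloid markers summed to between 3.20 and 4.07 TPM and to between 7.12 and 11.6 TPM, mostly through ITGAM (1.17 ± 0.16), with S100A8 and MPO at 0 in all libraries. The 10 T and NK cell markers summed to between 2.80 and 3.42 TPM and to between 4.53 and 5.63 TPM, mostly CD8A (0.47 ± 0.14), with CD3D, CD2 and NKG7 at 0. The 8 fibroblast markers summed to between 0.94 and 2.0 TPM and to between 1.19 and 3.03 TPM. In bulk RNA fewer cells of a type and less RNA per cell cannot be told apart.

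Finally, the genes whose pattern over the 6 libraries was most like that of IRF4 were listed. Pearson's r of log2(TPM + 1) was highest for PUDP (0.999), P2RX7 (0.999), TANC1 (0.999), TENT5C (0.998) and CCNG1 (0.998), and lowest for MUTYH (-0.998), TAGAP (-0.997), AP001992.1 (-0.996), LAP3 (-0.996) and EIF2D (-0.996). The 6 libraries form 2 groups of 3, so r mostly follows the difference between the groups, and 521 genes had an r above 0.95 and 547 one below -0.95, of 11856 compared. As the genes named here were picked by r, that they differ between the groups follows from the choice and is no separate result. P2RX7, an ATP-gated channel, fell from 35.6 to 15.3 TPM (log2 fold change -1.17 ± 0.11, adjusted p = 8.1e-05), close to the change of IRF4. TENT5C, a poly(A) polymerase that is often mutated in myeloma, fell from 46.4 to 29.3 TPM (-0.64 ± 0.08, adjusted p = 5.8e-04). Among the 10 factors, r with IRF4 was 0.97 for BACH2, 0.91 for POU2AF1, 0.80 for PRDM1, -0.61 for MEF2C and -0.83 for SPIB.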

How the data were processed

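For the 6 RPMI 8226 libraries column-purified, DNase-treated RNA had gone into the NEBNext Ultra kit, as the labels' protocols say. What the authors deposited is a TPM value for every Ensembl transcript in each library (unit per the file headers; total 1000000). STAR, DESeq and hg19 are named by the submitters' processing notes, without a role. The program behind the TPM values is not given in the sources used here, nor whether it used strand. Of 173259 transcripts, 159239 (91.9%) matched GENCODE 29 without version numbers, and their values were summed by gene. Coordinates are those of GENCODE 29 or RefSeq on GRCh38, and none was converted.

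Gene sums, transcripts and isoform shares (transcripts that passed the filter, of genes with at least 2 of these and 1 TPM in all libraries) were tested over whole tables with limma 3.58.1 (R 4.3.3, variance trend, group as the only term), after a filter of 1 TPM in at least 3 libraries. The fits were tested on simulated data, with 200 changed features in each set and independent noise. More genes and transcripts than that were called in the data, so recovery there may differ. In the simulated data, changes of 2-fold were recovered in 86.1% of cases for gene sums and in 8.5% for transcripts. Shifts of 10 percentage points in isoform shares were recovered in 16.8% of cases. A transcript or share that was not called may therefore still differ. The pseudocount was 1 TPM. Lists were described by counts and medians. Named were the 10 genes and their transcripts at 1 TPM or more in any library, HDAC1, up to 3 genes called in each direction per list by smallest p, and the 5 genes most and least like IRF4; IRF8, IKZF1, IKZF3, HK2, CD44 and uncalled markers, and transcripts below the rule's level, were named after their values were seen. Some genes of the lists are not reported here by name. The genes and lists were chosen with earlier results of these data known. Promoters are from RefSeq (GRCh38.p14), which had windows for 9 of the 10 genes. Alternatives were other scalings, filters and pseudocounts, protein-coding transcripts only, each library left out, the replicate number as a block and, chosen after seeing the data, sums without transcripts of incomplete end.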

Additional observations from a re-analysis of the deposited data

How the results depend on the processing

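The fall of IRF4 held under every alternative run, and no value of the 6 tested factors changed sign. The count of factors called lower, 4 as reported, was 2 with no filter on low values and 1 to 3 when any 1 library was left out. The count called higher, as reported SPIB alone, was 0 after median centring, after quantile normalization, with no filter and with the replicate block. It was also 0 with a mean of at least 5 TPM, where SPIB is not tested. Without transcripts of incomplete end it was 2, SPIB and MEF2C. It was 0 to 1 when a library was left out. Without shLuc replicate 2 or shHDAC1 replicate 2 the gene called was MEF2C, and SPIB was not called. The transcripts called lower, 2 as reported, numbered 1 with no filter, 0 with the replicate block (IRF4-201 at the same log2 fold change of -1.10 and an adjusted p of 0.060) and 1 when any library was left out, and those called higher, 0 as reported, were 0 to 1. Of the genes of the other lists, 28 were called higher as reported and 18 to 25 when a library was left out. With no filter 21641 genes are tested in place of 11857; otherwise the cause of these changes was not tested. Deviations of same-numbered libraries correlated at -0.1, 0.18 and 0.03, and those of differently numbered ones at between -0.16 and 0.15. This shows no clear pairing, but with 3 libraries in each group it cannot exclude one. The block also ended the call of BACH2 (adjusted p = 0.054). TPM keep no depth, so counting error, which bears most on BACH2, SPIB and the untested factors, could not be given.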
